A study of Mus musculus with 7 samples.

Results

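The 10 genes described here belong to cholinergic signalling and the neuromuscular junction, out of 46603 genes counted in the tumors. They are Slc5a7, Chat and Slc18a3 (choline uptake, acetylcholine synthesis and packaging), Ache and Bche (acetylcholine breakdown) and Chrna1, Chrnb1, Chrnd, Chrne and Chrng (subunits of the muscle acetylcholine receptor). The genes were chosen by symbol, with their levels in KO and KO + NM1 tumors already known. The differences of these 10 genes between the tumors, and their calls in the test over all genes, are therefore given as a description only.

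At a cholinergic terminal, the choline transporter encoded by Slc5a7 takes up choline, choline acetyltransferase (Chat) makes acetylcholine from it, and the vesicular transporter Slc18a3 loads the transmitter into vesicles. The muscle receptor is a ring of alpha, beta, delta and either gamma or epsilon subunits. The gamma subunit belongs to fetal and denervated muscle, and the epsilon subunit replaces it at the mature endplate. Acetylcholinesterase (Ache) clears the transmitter from the synaptic cleft, and butyrylcholinesterase (Bche) is a related esterase with a broad tissue distribution.

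KO cells are mouse embryonic fibroblasts (MEFs), of the line ATCC CRL-2752, in which nuclear myosin 1 (NM1), an isoform of the Myo1c gene, was deleted by CRISPR/Cas9. KO + NM1 cells carry the same deletion and an NM1-HA-V5 coding sequence brought in by a lentivirus, with Neomycin selection and testing of single clones. Female Balb/c nude mice, which lack a thymus and with it most T cells, were injected at 16 weeks of age, and the tumors were taken after up to 30 days according to the sample descriptions. The injection site is given as the right flank in the methods and in the sample descriptions, and as the mammary pad in the study's account of its results. RNA from 3 KO pieces and 4 KO + NM1 pieces was sequenced, and the descriptions speak of 1 tumor of each kind cut into 4 equal pieces. The spread between libraries is therefore a spread between pieces and may hold no difference between mice, and a difference between conditions cannot be told apart from one between these tumors.

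The libraries held 24088309 to 28326568 counts, and 3 counts, taken as the limit of what could be told from absence, came to 0.106 to 0.125 CPM of the library totals (CPM are counts scaled to a common library size). Myo1c itself was counted at 289 to 313 CPM in KO pieces and 382 to 438 CPM in KO + NM1 pieces, and these counts do not separate NM1 from the other Myo1c isoforms. Several libraries stood apart in the cells they held. Summed B cell markers reached 5771 CPM in KO + NM1 piece 01 and 4.36 to 22.7 CPM in the other 3 pieces of that tumor. KO piece 02 held 1325 CPM of summed keratinocyte markers against 30.3 and 10.4 CPM in KO pieces 01 and 03. KO + NM1 piece 03 held 3918 CPM of summed brown adipocyte markers against 453 to 1024 CPM in the other 3. Markers of fibroblasts, the injected cell type, summed to 7502 to 13445 CPM in KO and 3132 to 14151 CPM in KO + NM1 pieces. In bulk tissue such as this, fewer cells of a type and less RNA per cell cannot be told apart.

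Along the pathway, the choline transporter and esterase genes on one side and part of the muscle receptor genes on the other were higher in opposite tumors. Slc5a7, Ache and Bche were detected at higher levels in all 4 KO + NM1 pieces than in any KO piece, while Chrna1, Chrnb1 and Chrnd were higher in all 3 KO pieces. Chrne and Chrng had overlapping ranges, and Chat and Slc18a3 had no count in any library. Only 5 of the 10 genes passed the filter on low counts. In the comparison by the edgeR quasi-likelihood test, a gene was called where its Benjamini-Hochberg adjusted p was under 0.05 and its levels differed at least 2-fold. By that rule 2 of the genes (Chrna1 and Chrnb1) were called higher in KO and 3 (Slc5a7, Ache and Bche) lower. Of all 16887 genes tested, 17.1% were called higher and 20.3% lower, and KO and KO + NM1 pieces had separate ranges in 57%, with 30.5% higher and 26.4% lower in KO. Since the genes were chosen with this contrast known, nothing is read from these counts.

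**Figure D1:**
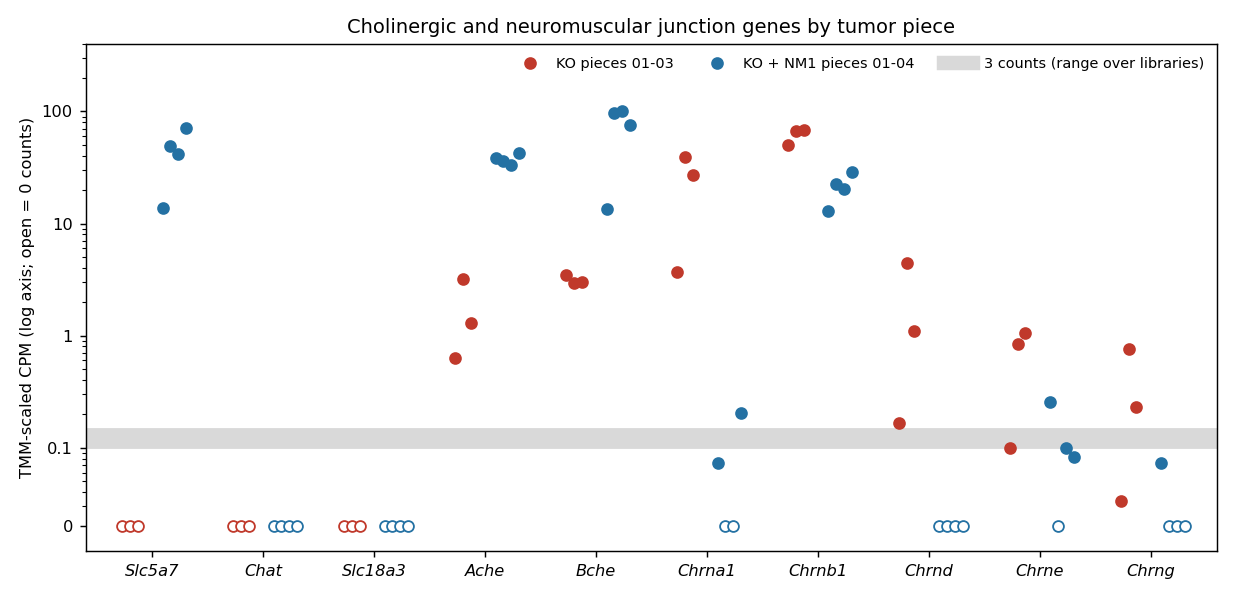
Level of each of the 10 genes in every tumor piece, in TMM-scaled CPM on a log axis, with KO pieces in red, KO + NM1 pieces in blue, open circles for 0 counts and a grey band at 3 counts. Slc5a7 was counted in the 4 KO + NM1 pieces alone, Chrna1 lay at 3.70 CPM or more in KO pieces and at 0.206 CPM or less in KO + NM1 pieces, and Chat and Slc18a3 were at 0 throughout.

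Slc5a7 (ENSMUSG00000023945, chr17:54273590-54299034, minus strand, GRCm38) had 0 counts in each of the 3 KO pieces and 376, 1207, 851 and 1729 counts in KO + NM1 pieces 01 to 04. Scaled for library size by TMM, these were 13.7, 49.1, 42.0 and 71.1 CPM, with a mean of 44.0 ± 23.7 CPM (SD, n = 4). Piece 01, the B cell-rich piece, was the lowest of the 4. Against the limit of 3 counts per library, Slc5a7 was at least 435-fold lower in KO. Chat (ENSMUSG00000021919, chr14:32408203-32465989, minus strand) and Slc18a3 (ENSMUSG00000100241, chr14:32462438-32464850, minus strand), which lies inside the Chat gene, had 0 counts in all 7 libraries. The choline transporter was thus counted in KO + NM1 pieces in which the synthetic enzyme and the vesicular transporter were not detectable at this depth.

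Markers of motor and cholinergic neurons did not single out the pieces with Slc5a7. Of 16 such markers, Isl1, Lhx3, Nefm and Snap25 held 3 counts or fewer in every library and Mnx1 held none. The list summed to 68.0 to 87.8 CPM in KO and 26.9 to 44.8 CPM in KO + NM1 pieces. It was led by the neuronal tubulin Tubb3, at 36.5 ± 0.931 CPM in KO (n = 3) and 0.170 ± 0.209 CPM in KO + NM1 (n = 4), and by the receptor tyrosine kinase Ret, at 2.92 ± 0.314 and 17.6 ± 7.22 CPM. Of the 9 markers tested, 5 were called higher and 2 lower in KO, beside 17.1% and 20.3% of all genes tested. Schwann cell and glial markers, led by Pmp22 and the myelin gene Mbp, summed to 160 to 183 CPM in KO and 282 to 715 CPM in KO + NM1, and 7 of 12 were called lower in KO.

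The levels of Slc5a7 moved with those of mammary epithelial markers. The 10 markers of that list, led by the casein Csn3 and the keratin Krt19, summed to 4.50, 69.0 and 47.1 CPM in KO pieces and to 610, 2299, 1981 and 2705 CPM in KO + NM1 pieces. Of 9 markers tested, 7 were called lower in KO, beside 20.3% of all genes tested. The milk gene Wap held 3 counts or fewer in every library. Per 1000 counts of the list, Slc5a7 had 22.5, 21.4, 21.2 and 26.3 counts in the 4 KO + NM1 pieces, a range far narrower than that of Slc5a7 itself. The KO pieces held 135, 1986 and 1426 counts of the list with no count of Slc5a7. The part of mammary tissue in the difference in Slc5a7 was not tested.

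Ache (ENSMUSG00000023328, chr5:137287519-137294466, plus strand) was present in every library. Its counts were 19, 93 and 39 in KO pieces and 1045, 883, 675 and 1040 in KO + NM1 pieces, or 0.633, 3.23 and 1.29 CPM against 38.1, 35.9, 33.4 and 42.8 CPM. The KO + NM1 pieces lay close together, at 37.5 ± 3.99 CPM (SD, n = 4), and the KO pieces at 1.72 ± 1.35 CPM (n = 3). The log2 fold change, KO minus KO + NM1, was -4.45 (SE 0.48), and -5.40 without KO piece 02, the piece with keratinocytes. Mir8116 lies within Ache on the same strand and had 0 to 2 counts in KO and 21 to 41 in KO + NM1 pieces, and the antisense gene Gm42456 had none.

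Bche (ENSMUSG00000027792, chr3:73635808-73708415, minus strand) differed by a similar amount but varied more within the KO + NM1 tumor. Its counts were 104, 84 and 91 in KO pieces, or 3.47, 2.92 and 3.00 CPM, and 371, 2358, 2033 and 1850 in KO + NM1 pieces, or 13.5, 95.9, 100.4 and 76.1 CPM. The means were 3.13 ± 0.294 CPM (n = 3) and 71.5 ± 40.1 CPM (n = 4), with a log2 fold change of -4.51 (SE 0.60). Piece 01 held less than any other KO + NM1 piece, and all 4 lay above the KO pieces. Without piece 01 the log2 fold change of Bche was -4.98.

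White adipocyte markers, led by the fatty acid carrier Fabp4 and the adipsin gene Cfd, varied among the KO + NM1 pieces much as Bche did. They summed to 122, 309 and 179 CPM in KO pieces and to 4923, 37049, 36463 and 27298 CPM in KO + NM1 pieces. All 10 were called lower in KO, beside 20.3% of all genes tested. Per 1000 counts of that list, Bche had 2.75, 2.59, 2.75 and 2.79 counts in the KO + NM1 pieces, among which Bche itself differed several-fold. In KO pieces the same ratio was 28.4, 9.45 and 16.8, so the adipocyte list was lower in KO by more than Bche was. Within the KO tumor, Bche did not follow the list. KO piece 01 had the lowest list sum and the highest Bche, at 3.47 CPM against 2.92 and 3.00 CPM in pieces 02 and 03. Ache did not follow the list within the KO + NM1 tumor, with 7.74 counts per 1000 in piece 01 and 0.970, 0.915 and 1.57 in pieces 02 to 04. The part of adipose tissue in the differences in Bche and Ache was not tested.

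**Figure D2:**
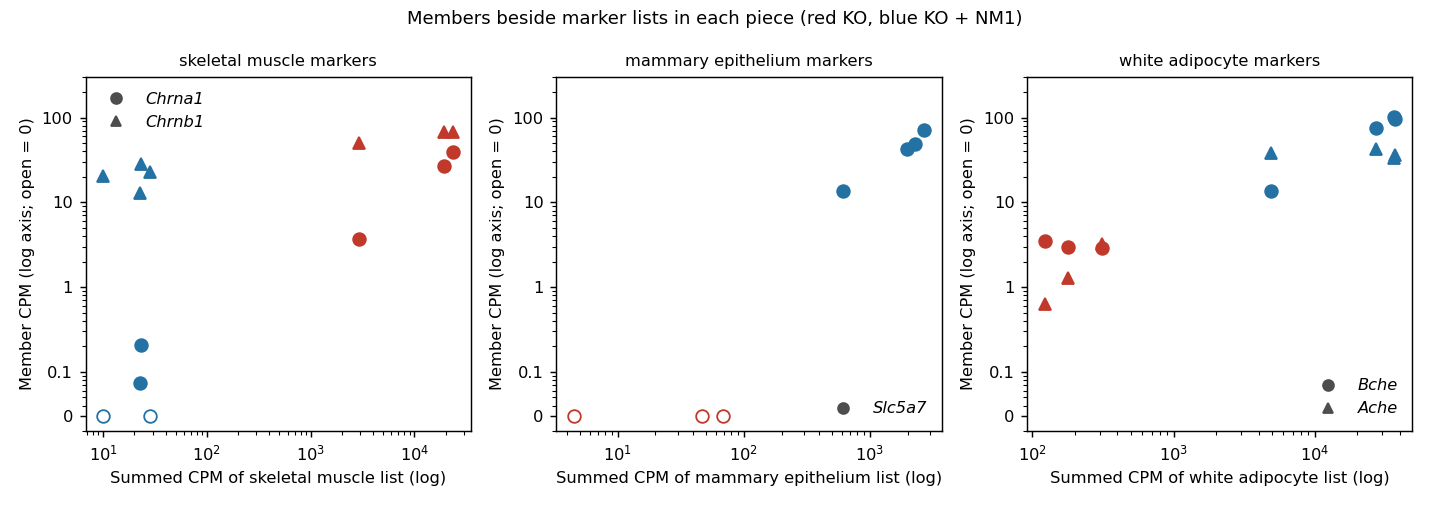
Level of Chrna1 and Chrnb1 (left), Slc5a7 (middle) and Bche and Ache (right) in each piece, in CPM, against the summed CPM of skeletal muscle, mammary epithelium and white adipocyte markers, with both axes logarithmic, KO in red, KO + NM1 in blue and open symbols at 0. Chrna1 was high where muscle markers summed to 2928 CPM or more, and the KO + NM1 piece with the fewest adipocyte markers, at 4923 CPM, had the lowest Bche of that tumor but not the lowest Ache.

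Chrna1 (ENSMUSG00000027107, chr2:73563215-73580338, minus strand), which encodes the subunit that carries the main part of each acetylcholine-binding site, had 111, 1137 and 818 counts in KO pieces and 2, 0, 0 and 5 in KO + NM1 pieces, in the order of their numbers. These were 3.70, 39.5 and 27.01 CPM, or 23.4 ± 18.2 CPM (SD, n = 3), in KO and 0 to 0.206 CPM in KO + NM1. KO piece 01 was the lowest of its tumor and still lay above all KO + NM1 pieces. The log2 fold change was 8.26 (SE 1.22). It was 7.55 without KO piece 02. Without KO + NM1 piece 04, which held 5 of the 7 counts in that tumor, Chrna1 was at least 185-fold higher in KO.

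Chrnb1 (ENSMUSG00000041189, chr11:69784036-69795943, minus strand), the beta subunit, was the subunit with the smallest difference among the receptor genes that were tested. It had 1507, 1921 and 2074 counts in KO pieces, or 50.2, 66.8 and 68.5 CPM, and 356, 558, 409 and 696 counts in KO + NM1 pieces, or 13.0, 22.7, 20.2 and 28.6 CPM. The means were 61.8 ± 10.1 CPM (n = 3) and 21.1 ± 6.47 CPM (n = 4), and the log2 fold change was 1.55 (SE 0.27). Chrnb1 was the muscle receptor subunit that stayed well above the detection limit in both tumors.

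The other 3 subunits had few counts. Chrnd (ENSMUSG00000026251, chr1:87190607-87200070, plus strand), the delta subunit, had 5, 128 and 33 counts in KO pieces and none in any KO + NM1 piece, which made it at least 15.1-fold higher in KO against the limit of 3 counts, and at least 5.00-fold without KO piece 02. With every gene of at least 1 count tested, where 9.36% of 28894 genes were called higher and 12.7% lower, Chrnd was called higher too, and Chrne and Chrng were not called. The epsilon gene Chrne (ENSMUSG00000014609, chr11:70614883-70619216, minus strand) had 3, 24 and 32 counts in KO and 7, 0, 2 and 2 in KO + NM1 pieces. The gamma gene Chrng (ENSMUSG00000026253, chr1:87204657-87212694, plus strand), next to Chrnd on the same strand, had 1, 22 and 7 counts in KO and 2, 0, 0 and 0 in KO + NM1 pieces. For both genes KO piece 01 lay below KO + NM1 piece 01, so the tumors overlapped. Chrne overlaps the antisense gene 4930544D05Rik, which had 1, 13 and 4 counts in KO and 6, 1, 0 and 0 in KO + NM1 pieces, and without a stated strand setting their reads cannot be told apart.

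The gamma subunit was counted beside the epsilon subunit in the KO tumor. Chrng took 22 of the 46 counts of both genes in KO piece 02, or 47.8% (95% Wilson interval 34.1 to 61.9%), and 7 of 39, or 17.9% (8.98 to 32.7%), in KO piece 03. In KO piece 01 it took 1 of 4 and in KO + NM1 piece 01 it took 2 of 9, with wide intervals of 4.56 to 69.9% and 6.32 to 54.7%. The intervals cover counting error only. Per length, Chrng stayed below Chrne in every KO piece, at 0.0282, 0.638 and 0.189 TPM (a transcript's share of the library, scaled by its length) against 0.209, 1.71 and 2.13 TPM for Chrne.

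Skeletal muscle markers, led by the fast myosin Myh4 and the actin Acta1, summed to 2928, 23757 and 19208 CPM in the 3 KO pieces, against 9.98 to 28.3 CPM in KO + NM1 pieces. All 14 markers tested, of 15 listed, were called higher in KO, beside 17.1% of all genes tested. Chrna1 kept a near-constant ratio to these markers in the KO tumor, with 1.26, 1.66 and 1.41 counts per 1000 marker counts, although the marker sum of piece 01 was several-fold below the others. Chrnb1 did not, with 17.2 per 1000 in piece 01 and 2.81 and 3.57 in pieces 02 and 03. In KO + NM1 pieces, Chrnb1 had 356 to 696 counts where the whole list had 202 to 695. The ratio of Chrnd was 0.0569, 0.187 and 0.0567 and that of Chrne 0.0342, 0.0351 and 0.0550 in KO pieces 01 to 03. The part of muscle tissue in the differences in the receptor genes was not tested.

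Between genes, levels were compared per length, as TPM from the exon lengths of GENCODE M21. In the KO tumor Chrnb1 was highest at 84.5 ± 12.6 TPM (SD, n = 3), followed by Chrna1 at 18.4 ± 14.3 TPM, and the ranges of these genes did not overlap. From Chrna1 down, through Chrnd (2.00 ± 2.38), Bche (1.61 ± 0.175), Chrne (1.35 ± 1.01), Ache (1.29 ± 1.02) and Chrng (0.285 ± 0.316 TPM), each gene overlapped the next. In the KO + NM1 tumor Bche (25.5 ± 13.1), Chrnb1 (21.5 ± 8.22), Ache (21.3 ± 6.20) and Slc5a7 (19.9 ± 12.5 TPM, n = 4) overlapped one another in this order. A gap without overlap then led to Chrne at 0.181 ± 0.203 TPM, Chrna1 at 0.0471 TPM and Chrng at 0.0137 TPM.

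Summed over the 5 subunits, muscle receptor transcripts came to 73.4, 129.9 and 116.4 TPM in KO pieces and 16.6, 21.9, 15.2 and 33.2 TPM in KO + NM1 pieces. TPM were not TMM-scaled, and mitochondrially encoded genes took 1.81 to 2.14% of counts in KO and 5.11 to 18.5% in KO + NM1 pieces. The means of Chrnb1 lay farther apart in TPM (84.5 against 21.5) than in TMM-scaled CPM (61.8 against 21.1). Chrnb1 made up 95.4, 70.5 and 79.1% of the summed TPM in the KO pieces, against 96.5 to 100% in KO + NM1 pieces. The share of Chrna1 was 4.05, 24.1 and 18.0% in KO pieces and 0.411% or less in KO + NM1 pieces. KO piece 01, with the fewest muscle markers of its tumor, thus had a subunit make-up nearer to that of the KO + NM1 pieces.

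**Figure D3:**
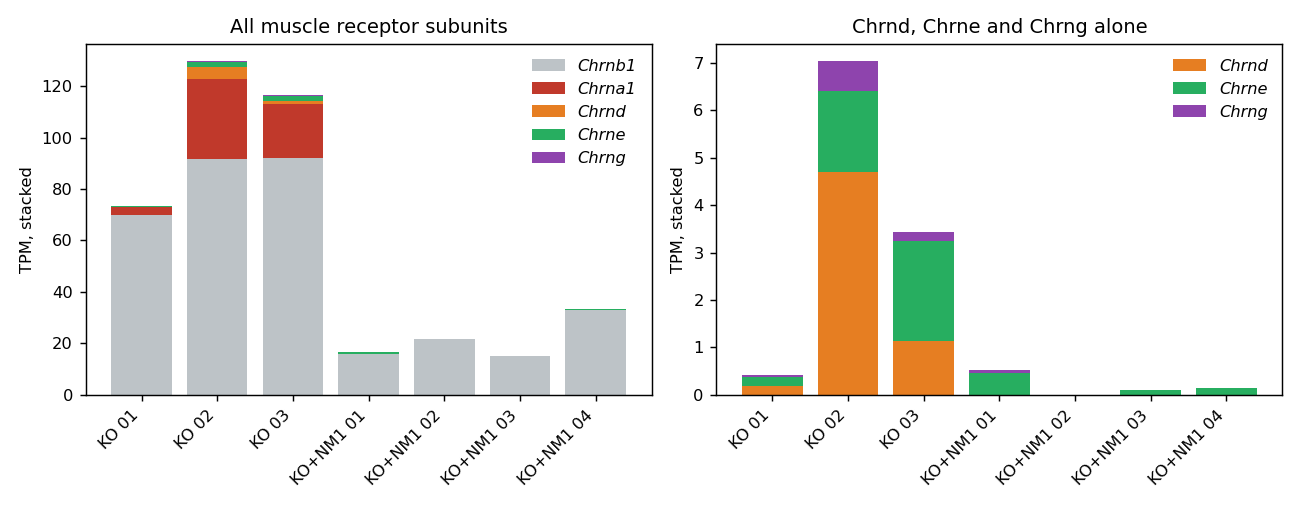
Stacked TPM of the 5 muscle receptor subunits in each tumor piece (left) and of Chrnd, Chrne and Chrng alone on their own axis (right), with bars starting at 0. Chrnb1 fills most of every bar on the left, Chrna1 adds 4.05 to 24.1% in KO pieces, and on the right KO pieces 02 and 03 carry most of the Chrnd, Chrne and Chrng signal.

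The upstream sequences of the receptor genes are shown because muscle receptor genes are known targets of the myogenic bHLH factors, which bind E-boxes, and of synaptic ETS factors, which bind the N-box. The 250 bases before the start were taken from RefSeq (GRCm38.p6), whose table held 9 of the 10 genes, all but Chrnd. Capitals mark E-boxes, written CANNTG, and in Chrne also the N-box, CCGGAA on either strand. Slc5a7 is shown for comparison, as the gene of the 10 that was counted in the KO + NM1 tumor and not in the KO tumor. The windows are chr2:73580339-73580588 (minus strand) for Chrna1, chr11:69795938-69796187 (minus) for Chrnb1, chr11:70619195-70619444 (minus) for Chrne, chr1:87205561-87205810 (plus) for Chrng and chr17:54299035-54299284 (minus) for Slc5a7.
Chrna1: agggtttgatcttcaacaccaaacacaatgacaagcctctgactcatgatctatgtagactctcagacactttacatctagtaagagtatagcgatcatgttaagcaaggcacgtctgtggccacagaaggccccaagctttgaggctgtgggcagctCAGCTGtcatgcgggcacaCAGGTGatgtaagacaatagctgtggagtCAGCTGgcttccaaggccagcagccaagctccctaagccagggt
Chrnb1: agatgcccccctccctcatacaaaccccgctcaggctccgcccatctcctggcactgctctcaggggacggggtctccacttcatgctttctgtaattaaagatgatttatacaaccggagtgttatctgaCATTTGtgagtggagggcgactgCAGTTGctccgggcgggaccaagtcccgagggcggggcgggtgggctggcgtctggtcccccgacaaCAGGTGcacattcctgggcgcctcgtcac
Chrne: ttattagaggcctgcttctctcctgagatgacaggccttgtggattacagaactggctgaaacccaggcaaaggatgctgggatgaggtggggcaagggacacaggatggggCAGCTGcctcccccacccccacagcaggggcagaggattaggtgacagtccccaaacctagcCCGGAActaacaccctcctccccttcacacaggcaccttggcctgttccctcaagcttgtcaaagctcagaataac
Chrng: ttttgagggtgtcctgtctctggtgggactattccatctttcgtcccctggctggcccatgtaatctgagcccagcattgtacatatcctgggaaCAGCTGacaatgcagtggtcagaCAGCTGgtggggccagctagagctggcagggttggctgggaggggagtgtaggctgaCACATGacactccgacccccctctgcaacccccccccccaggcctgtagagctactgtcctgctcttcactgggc
Slc5a7: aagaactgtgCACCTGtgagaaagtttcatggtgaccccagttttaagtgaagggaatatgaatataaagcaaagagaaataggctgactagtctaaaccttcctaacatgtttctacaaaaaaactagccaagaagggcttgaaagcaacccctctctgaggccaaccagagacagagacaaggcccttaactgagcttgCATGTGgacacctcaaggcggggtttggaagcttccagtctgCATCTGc

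Chrna1 and Chrng each held 3 E-boxes, of which 2 were CAGCTG, a form of the E-box that myogenic factors are known to favour. In Chrna1 the CAGCTG matches began 92 and 44 bases before the start and CAGGTG 73 bases before it. In Chrng CAGCTG began 155 and 132 bases and CACATG 75 bases before the start. Chrne had a single CAGCTG at 138 bases and the N-box at 76 bases. Chrnb1, the subunit present in both tumors, also had 3 E-boxes, at 119, 96 and 29 bases, but no CAGCTG, and neither did Slc5a7, with E-boxes at 240, 49 and 7 bases.

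E-boxes are frequent in such windows. At least 1 was found in 66.2% of all 32851 windows and at least 3 in 12.2%, while 13.0% held CAGCTG, 1.26% held it at least 2 times, and 12.0% held the N-box. Every CAGCTG is also counted as an E-box, and as both words read the same on either strand each match was counted once. The remaining members had 1 E-box (Ache and Slc18a3) or 2 (Bche, and Chat with 1 CAGCTG among them), and none of them had the N-box. A match is a description of letters and not a measured binding site.

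The genes closest to 3 of the members in their pattern over the 7 libraries were found by the root mean square distance of centred log2 CPM among 16886 genes. For Slc5a7 they were Krt19, a keratin of simple epithelia, at a distance of 0.25, Cited1, a transcriptional coregulator, at 0.35 and Hcar1, the lactate receptor, at 0.48. Krt19 had 17, 18 and 10 counts in KO pieces and 2510, 9443, 6708 and 11006 in KO + NM1 pieces, the same order of pieces as Slc5a7. For Chrna1 they were Jsrp1 at 0.35 and Ppp1r3a at 0.43, both genes of skeletal muscle, and Dusp13 at 0.48. For Bche they were Car5b, a mitochondrial carbonic anhydrase, at 0.12, Als2cr12 at 0.17 and Angptl4, a secreted inhibitor of lipoprotein lipase, at 0.19.

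The other genes of the pathway were taken as 6 lists with 96 symbols, of which 95 were in the counts and 73 passed the filter on low counts. Of these 73, 42 were called in either direction, where 37.3% of all genes tested were called, with 17.1% higher and 20.3% lower in KO. The lists were also chosen with earlier results of these data known, so their calls and adjusted p are given as a description. Within them, Chrna5, Chrm3, Slc44a1, Slc44a5, Pcyt1b, Chpt1, Flvcr1, Chka, Chkb, Pcyt1a, Cept1 and Pemt were named only after their values were seen.

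Among the genes that build the postsynaptic side, 7 of 25 tested were called higher in KO and 7 lower, beside 17.1% and 20.3% of all genes tested. Their median log2 fold change was 0.14 against -0.0017 over all genes tested. The receptor-clustering scaffold Rapsn was higher in KO, at 6.997 ± 0.930 CPM (SD, n = 3) against 1.30 ± 0.764 CPM (n = 4), with a log2 fold change of 2.42 (SE 0.44, edgeR adjusted p = 0.0040). Dok7, the adaptor that activates MuSK, and Lrp4, the agrin receptor, were also called higher, by 2.18 (SE 0.68) and 1.31 (SE 0.45) with edgeR adjusted p = 0.0314 and 0.0443, but the pieces overlapped in both genes and the calls were lost under 6 of 14 and 9 of 15 alternatives. The kinase gene Musk had 1, 157 and 108 counts in KO pieces and 1, 0, 1 and 0 in KO + NM1 pieces. KO piece 01 thus lay within the range of the KO + NM1 pieces, and the gene did not pass the filter. Over its tumor Musk was at least 24.01-fold higher in KO, or 14.3-fold without KO piece 02, and it was called higher when every gene with at least 1 count was tested (edgeR adjusted p = 0.0141). The neuregulin gene Nrg1, whose product signals to muscle and Schwann cells, was higher in KO, at 4.89 ± 0.302 against 0.210 ± 0.237 CPM (log2 fold change 4.47, SE 0.76, edgeR adjusted p = 0.0036), and 5.42 without KO + NM1 piece 01.

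In the opposite direction, Agrn, which encodes the nerve-derived organizer agrin, was lower in KO at 80.5 ± 7.73 against 167 ± 69.0 CPM (log2 fold change -1.06, SE 0.33, edgeR adjusted p = 0.0356), a call lost under 8 of 15 alternatives. The laminin gene Lama5 was lower by more, at 28.9 ± 7.18 against 194 ± 68.0 CPM (log2 fold change -2.75, SE 0.33, edgeR adjusted p = 0.0013). The neuregulin receptor Erbb3, which also marks Schwann cells, was at 11.04 ± 5.65 against 68.5 ± 35.6 CPM (log2 fold change -2.63, SE 0.53, edgeR adjusted p = 0.0087), and -3.26 without KO piece 02. Erbb4 held 1 count or none in KO pieces and was at least 10.9-fold lower (edgeR adjusted p = 0.0032). Mammary epithelial, adipocyte and Schwann cell markers differed in the same direction as these genes, and their part was not tested. Erbb3 is itself in the Schwann cell and glial marker list.

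Colq, which encodes the collagen tail that anchors Ache in the cleft, turned on a single library. It had 29, 83 and 75 counts in KO pieces and 1698, 1, 2 and 0 in KO + NM1 pieces 01 to 04. With all libraries its log2 fold change was -2.88 (SE 2.23) and it was not called (edgeR adjusted p = 0.364). Without KO + NM1 piece 01, the piece with 5771 CPM of B cell markers, it was 5.33 and called (edgeR adjusted p = 0.00085). Prima1, the membrane anchor of Ache, had 0, 5 and 1 counts in KO and 1, 7, 4 and 8 in KO + NM1 pieces and was not tested.

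Neuronal nicotinic subunits were scarce. Of 11, 5 were tested, and 1 was called higher and 3 lower in KO, beside 17.1% and 20.3% of all genes tested. Chrna6 and Chrnb3 had no count in any library. Chrna2 was at 0.234 ± 0.151 CPM in KO and 3.26 ± 1.30 CPM in KO + NM1 (log2 fold change -3.77, SE 0.54, edgeR adjusted p = 0.0024), and -4.50 without KO piece 01. Chrnb4 was at least 23.3-fold lower in KO (edgeR adjusted p = 0.0125). This rested in part on KO + NM1 piece 01, which had 7.33 CPM against 0.411 to 1.04 CPM in the other 3, and without which it was at least 6.92-fold lower. Chrna5 was the subunit called higher in KO, at 0.776 ± 0.130 against 0.120 ± 0.0659 CPM (log2 fold change 2.68, SE 0.51, edgeR adjusted p = 0.0043). The alpha-7 gene Chrna7 had 2 counts in KO + NM1 piece 03 and none elsewhere.

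Of the 5 muscarinic receptors, which signal through G proteins, 2 were tested. Chrm1 was at least 70.6-fold lower in KO (edgeR adjusted p = 0.0015), at 7.14 ± 4.72 CPM in KO + NM1 (n = 4), and Chrm3 did not pass the test, at 0.733 to 1.53 CPM in KO and 0.494 to 3.08 CPM in KO + NM1. Chrm5 was at 0 in every library.

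Among genes of choline transport and metabolism, 3 of 19 tested were called higher in KO and 5 lower, beside 17.1% and 20.3% of all genes tested. Their median log2 fold change was -0.48. The genes of this list called higher were Pcyt1b, an enzyme of phosphatidylcholine synthesis, at 20.6 ± 5.07 against 1.19 ± 0.545 CPM (log2 fold change 4.11, SE 0.38, edgeR adjusted p = 0.00057), the choline transporter-like gene Slc44a5, at 3.04 (SE 0.78), and the choline carrier Flvcr1, at 1.33 (SE 0.29). Those lower in KO included the choline oxidizing enzyme Chdh, at 0.813 ± 0.862 against 58.6 ± 34.0 CPM (log2 fold change -6.17, SE 0.81, edgeR adjusted p = 0.0027), which was -7.64 without KO piece 02. They also included the choline transporter-like genes Slc44a3, at least 204-fold lower (edgeR adjusted p = 0.00068), and Slc44a4, at -6.09 (SE 1.05, edgeR adjusted p = 0.0047) and at least 62.8-fold lower without KO piece 03, and the organic cation transporter Slc22a2, at least 16.3-fold lower (edgeR adjusted p = 0.0056). Chpt1, another enzyme of phosphatidylcholine synthesis, was called lower too, at 43.3 ± 0.910 against 807 ± 489 CPM (log2 fold change -4.22, SE 0.57). Pcyt1b and Chpt1 thus differed in opposite directions. Chka, Chkb, Pcyt1a, Cept1 and Pemt, listed genes of the same synthesis, were tested and not called, at -0.36 (Chkb) to 0.64 (Pcyt1a). The widely expressed choline carrier Slc44a1 lay at 47.7 to 54.6 CPM in KO and 45.7 to 99.4 CPM in KO + NM1 and was not called. White adipocyte and mammary markers were lower in KO together with Chdh, Slc44a3 and Slc44a4, and their part was not tested.

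Of the receptor chaperones and lynx-type modulators, 1 of 6 tested was called higher and 4 lower, beside 17.1% and 20.3% of all genes tested. Their median log2 fold change was -2.25. Lypd6 was at 6.08 ± 2.00 CPM in KO against 0.173 ± 0.119 CPM (log2 fold change 5.12, SE 0.59, edgeR adjusted p = 0.00099). Ly6h changed by -6.94 on the log2 scale (SE 1.18, edgeR adjusted p = 0.0031). Without KO piece 03, the one KO piece with counts, it was at least 59.4-fold lower. The receptor assembly factor Tmem35a changed by -4.27 (SE 0.50, edgeR adjusted p = 0.0012), and the chaperone Ric3 by -2.99 (SE 0.63, edgeR adjusted p = 0.0099), a call lost with the piece number as a block (edgeR adjusted p = 0.0939).

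The denervation and embryonic muscle list had 10 of 16 tested genes called higher in KO and none lower, beside 17.1% and 20.3% of all genes tested. Its median log2 fold change was 1.66. The myogenic factor genes Myf6 and Myod1 were at least 148-fold and 20.8-fold higher (edgeR adjusted p = 0.01299 and 0.0085), and at least 80.4-fold and 12.5-fold without KO piece 02. Myog, with 8, 258 and 130 counts in KO and none in KO + NM1 pieces, was at least 35.9-fold higher, or 18.1-fold without KO piece 02, but did not pass the filter. The sarcoplasmic reticulum regulator Sln was at least 216-fold and the ubiquitin ligase Trim63 at least 652-fold higher (edgeR adjusted p = 0.0107 and 0.0012), or 60.6-fold and 412-fold without KO piece 02. Ncam1, an adhesion gene that muscle and nerve share, was at 10.6 ± 2.13 against 3.32 ± 0.780 CPM (log2 fold change 1.68, SE 0.28, edgeR adjusted p = 0.0027). Muscle markers as a whole were higher in the KO tumor, as given for the receptor genes, and a difference in these genes cannot be told apart here from one in the amount of muscle.

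**Figure D4:**
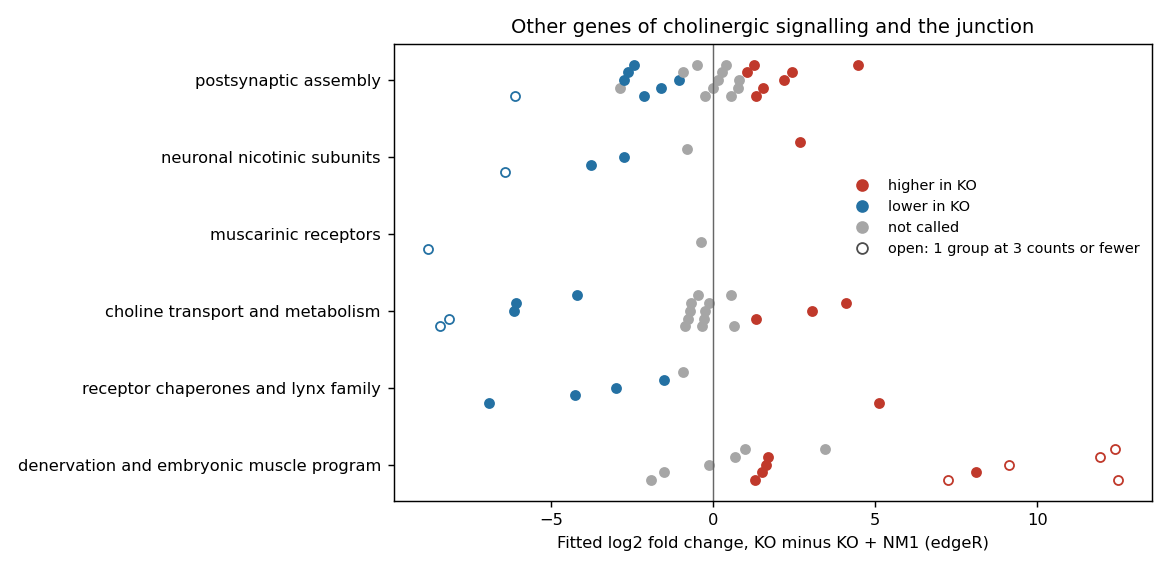
Fitted log2 fold change, KO minus KO + NM1, of the tested genes in 6 pathway lists, each point 1 gene, in red or blue where it was called higher or lower in KO and grey where it was not, and open where every library of 1 tumor held 3 counts or fewer and the value depends on the prior count. Postsynaptic assembly genes lie on both sides (7 and 7 called), and the denervation and embryonic muscle list lies mostly to the right (10 called higher and none lower). Over all genes tested, 17.1% were called higher and 20.3% lower.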

How the data were processed

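Total RNA of 7 tumor pieces was sequenced after NEBNext Ultra II library preparation. Per the labels and the submitters' processing notes, the authors used Trimmomatic 0.36, FastQC, HISAT2 2.0.4 (GRCm38), SAMtools 0.1.19 and HTSeq. The annotation release and strand setting are not given in the sources used here. The deposited values are raw read counts for 46603 genes, of which 46091 had a GENCODE M21 symbol.

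The genes and all lists were chosen with earlier results of these data known. Named genes were the 10 members, the 4 called genes of largest change per pathway list (mean of at least 1 CPM in the higher group), 10 junction genes whatever their values, and the 2 leading markers per cell type. Chrna5, Chrm3, Slc44a1, Slc44a5, Pcyt1b, Chpt1, Flvcr1, Chka, Chkb, Pcyt1a, Cept1, Pemt, Myo1c and the genes overlapping members were added after their values were seen. Some genes that the rule names are not reported here. Counts were compared in R 4.3.3 with edgeR 4.0.16 (filterByExpr with a minimum count of 10, TMM, quasi-likelihood test, Benjamini-Hochberg over 16887 genes, prior count 2). Folds against a group with 3 counts or fewer in every library are lower bounds. CPM are TMM-scaled. Alternatives, 16 in all, covered normalization, filters, thresholds, DESeq2 1.42.0, a replicate block and each library left out. Pairs of libraries of the same tumor differed beyond counting noise (chi-square per degree of freedom 35.2 to 687). Depth was 24088309 to 28326568 counts per library.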

Additional observations from a re-analysis of the deposited data

Results flagged for a closer look

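Genes with more than 3 counts in at least 1 KO + NM1 piece, and the marker sums, were examined over these 4 pieces. In 11 of 56 values, 1 piece lay farther from the rest than Dixon's 95% critical value for the gap over the range allows, where about 1 in 20, or 2.8, would by chance. The values are not independent, since most concern KO + NM1 piece 01.

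Among the genes of the pathway, Colq had a ratio of 0.998, with 61.9 CPM in piece 01 and at most 0.0988 CPM in the other 3. Rapsn had a ratio of 0.915, with 2.44 CPM in piece 01 and 0.840 to 0.976 CPM in the others. Chrnb4 had a ratio of 0.909, with 7.33 CPM in piece 01 and 0.411 to 1.04 CPM in the others. Slc44a3 had a ratio of 0.898 with piece 01 low, at 5.07 CPM against 24.7 to 26.98 CPM.

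The markers of other cells moved in the same piece. The B cell sum had a ratio of 0.997 and its gene Cd79a had 0.997. The T and NK cell sum had 0.986, at 183 CPM against 3.36 to 5.86 CPM, with Cd4 at 0.985 and Nkg7 at 0.972. Piece 03 was instead the one set apart for the brown adipocyte sum, at 0.835, and for Ucp1, at 0.881, with 1775 CPM against 130 to 325 CPM. Of the cholinergic and junction genes chosen, Slc5a7, Ache, Bche, Chrna1, Chrnb1 and Chrne had enough counts to be examined, and none of these 6 had a piece past the critical value.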

How the results depend on the processing

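As a description of genes chosen with this contrast known, the fitted log2 fold changes of the 5 tested members ran over the alternatives from -13.55 to -12.84 for Slc5a7, -5.40 to -4.16 for Ache, -4.98 to -4.10 for Bche, 7.55 to 9.51 for Chrna1 and 1.25 to 1.76 for Chrnb1. Those of Slc5a7, and the 9.51 of Chrna1 without KO + NM1 piece 04, are set against 3 counts or fewer per library and depend on the prior count. With at least 10 counts required in every library, Slc5a7 and Chrna1 were not tested, 1 member was called higher and 2 lower, and 18 pathway genes were called in place of 42. With every gene of at least 1 count tested, 3 members were called higher, Chrnd being added. Over all genes, the adjusted p alone gave 4345 higher and 4132 lower genes against 2882 and 3424, library size alone gave 3401 and 2977, upper-quartile scaling 2461 and 3826, and the DESeq2 Wald test 2747 and 3946. Leaving out 1 library gave 2174 to 3603 genes higher and 2811 to 4172 lower, 2 to 4 members higher and 3 lower, and 34 to 47 pathway genes. The 4 came without KO piece 01, when Chrnd and Chrne were added. Of the values of named genes under the alternatives, 402 kept their direction and call, 24 lost the call and 2 changed direction. Both of the latter were Colq, whose value ran from -3.30 to 5.33 with 1 library left out (5.33 without KO + NM1 piece 01) and was 2.40 with the replicate block.

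Piece numbers were not taken as pairs in the main comparison. Same-numbered pieces of the tumors had correlations of deviations of 0.0802, 0.1025 and -0.0165. KO piece 01 correlated best with KO + NM1 piece 01, and KO piece 02 with KO + NM1 piece 04 (0.109). Without a reference for correlations of this size, they cannot decide whether the numbers mark pairs. With the number as a block, 2437 genes were higher and 2493 lower, 2 members were higher and 3 lower, and 34 pathway genes were called. Ric3 and Agrn lost their calls (edgeR adjusted p = 0.0939 and 0.123).

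Depth limits Chat, Slc18a3, Chrnd, Chrne and Chrng, whose counts lay near or under 3 in most libraries of at least 1 tumor. The tumors were represented by pieces, so no value here covers the spread between mice.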
